A study of Mus musculus with 18 samples.

Results

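Potassium channels set the resting potential of adrenal cells and end their action potentials. The genes described here are the potassium channel genes of the mouse, chosen by symbol: every gene on the array whose symbol starts with Kcn and a further letter, other than Kcnma1, Kcnmb2, Kcnmb4, Kcnk1, Kcnk3 and Kcnk9. They were 82 of the 19057 genes with a named probe, read by 160 of 34885 probes. A probe was taken as detected where its detection p-value was under 0.01 on 3 or more arrays. By that rule 27 of the 82 genes were detected, through 34 probes, of 10375 genes detected in all. Pore-forming subunits, auxiliary subunits and transcripts antisense to channel genes are all included.

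Adrenal RNA of C57BL/6N mice aged 2 months was measured on Illumina bead arrays in 6 groups of 3 arrays. The groups were castrated males, females and intact males, each either Ephb6 knockout (KO) or wild type (WT). Ephb6 encodes an Eph receptor, a family that binds ephrins on neighbouring cells. The labels do not state how the knockout allele was made, the time after castration or whether the arrays of a group stand for separate animals. The p-values therefore reflect only how far arrays of a group differ, possibly for technical reasons. Whole glands were used, so steroid-making cortex and catecholamine-making medulla were measured together. In such samples fewer cells of a type and less RNA per cell cannot be told apart.

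A voltage-gated potassium channel is built of pore subunits that open on depolarization, often with auxiliary subunits that change its gating or its transport to the membrane. Inward rectifiers and two-pore channels pass potassium near the resting potential. Calcium-activated and sodium-activated channels open when these ions enter the cell. In the zona glomerulosa the resting potassium current couples blood potassium and angiotensin II to aldosterone release, and in chromaffin cells of the medulla potassium currents shape the firing that drives catecholamine release. The members of the two-pore family best known for this in the mouse cortex, Kcnk3 and Kcnk9, are outside the gene set.

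Of the 18 arrays, 17 had mean bead signals of 445.8 to 639.5 and detected 34.6% to 37.9% of all probes. Array 1 of the castrated knockouts was dimmer. Its mean signal was 244.4, it detected 27.8% of probes, and its array weight was the lowest (0.162). Array 1 of the knockout females had the next lowest (0.277), against 0.454 to 2.74 for the other 16. Ephb6 read 5.21 to 5.51 in castrated knockouts and 6.68 to 6.82 in castrated wild types, 4.96 to 5.54 in knockout females and 6.51 to 7.12 in wild-type females, and 4.89 to 5.86 in knockout intact males and 5.73 to 6.37 in wild-type intact males, all in log2 intensity. Averaged over the 3 conditions the knockout difference of Ephb6 was -1.14 (SE 0.15, limma adjusted p = 0.00481), and in intact males the arrays of the genotypes overlapped. All wild-type arrays detected Ephb6. Of 3 knockout arrays per condition, 0 detected it in castrated males, 1 in females and 2 in intact males. The size is thus partly a difference from undetected signal. Xist was detected on the 6 female arrays and Eif2s3y, a Y-linked gene, on the other 12. The tissue markers were present on every array: Th at 11.70 to 13.87, Dbh at 10.89 to 13.20, Pnmt at 11.28 to 13.54, Star at 12.03 to 13.20, Cyp11b1 at 13.69 to 14.34 and Cyp11b2 at 7.36 to 9.89. Akr1c18, a marker of the X-zone, which is present in females and regresses in intact males, was detected on the 12 arrays of females and castrated males.

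Detection differed by subfamily. Of 25 voltage-gated pore subunits, 7 were detected: Kcna6, Kcnc1, Kcnc4, Kcnd2, Kcnh2, Kcnh3 and Kcnh6. The other 18 (Kcna1, Kcna2, Kcna3, Kcna4, Kcna5, Kcna7, Kcna10, Kcnc2, Kcnd1, Kcnd3, Kcnh1, Kcnh4, Kcnh5, Kcnh7, Kcnh8, Kcnq1, Kcnq3 and Kcnq5) were not. Kcng2 was the only detected gene among 10 modifier subunits, which carry no current alone, and Kcnf1, Kcng1, Kcng3, Kcng4, Kcns1, Kcns2, Kcns3, Kcnv1 and Kcnv2 were not detected. Auxiliary subunits were detected for 6 of 13 genes (Kcnab1, Kcnab2, Kcnab3, Kcne4, Kcnip1 and Kcnip3), and Kcne1, Kcne1l, Kcne2, Kcne3, Kcnip2, Kcnip4 and Kcnrg were not. Inward rectifiers were detected for 4 of 13 genes, Kcnj3, Kcnj4, Kcnj8 and Kcnj12, with Kcnj1, Kcnj2, Kcnj5, Kcnj6, Kcnj9, Kcnj11, Kcnj14, Kcnj15 and Kcnj16 below the rule. Of 11 two-pore genes, Kcnk2, Kcnk5, Kcnk6 and Kcnk13 were detected, and Kcnk4, Kcnk7, Kcnk10, Kcnk12, Kcnk15, Kcnk16 and Kcnk18 were not. In the calcium-activated and sodium-activated group, formed by symbol (Kcnn, Kcnt, Kcnu and Kcnmb), 4 of 8 genes were detected. These were Kcnn1, Kcnn2, Kcnt1 and Kcnu1, and Kcnmb1, Kcnn3, Kcnn4 and Kcnt2 were not. Kcnu1 and Kcnmb1 are in this group by symbol and not by their gating. Kcnmb1, an auxiliary subunit, is counted here and not among the auxiliary subunits above. Kcnq1ot1, the imprinted antisense transcript of the Kcnq1 locus, was detected, and the antisense transcript Kcnmb4os1 was not. For 48 of the 55 undetected genes no array detected any probe.

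The 6 groups differed in 8 of the 27 detected genes by limma's moderated F-test over all groups (29.6%), against a background of 18.3% of the 10375 genes tested. These were Kcna6 (adjusted p = 0.000859), Kcnh2 (0.00262), Kcnip3 (0.00309), Kcnj4 (0.0116), Kcnc4 (0.0191), Kcnh6 (0.028), Kcnh3 (0.0418) and Kcnab3 (0.047). Kcnk5, Kcng2 and Kcnk2 passed in a single comparison without passing the F-test (adjusted p = 0.0642, 0.0689 and 0.252). The remaining 16 detected genes passed in none of the 13 comparisons. All 11 genes that passed did so between intact males and either castrated males or females. Of these, 9 were lower outside the intact males. Calls over all 10375 genes also lay mostly there, at 1051 to 1818 per comparison. Castrated males against females gave 34 calls in wild types and 159 in knockouts. Knockout against wild type gave 0 in each condition and 1 in their mean. Calls against intact males were therefore not particular to the channel genes. The share of all genes passing in any of the 13 comparisons is not given here. Adjustment was over all 10375 genes, and the threshold for a pass was 0.05.

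**Figure D1:**
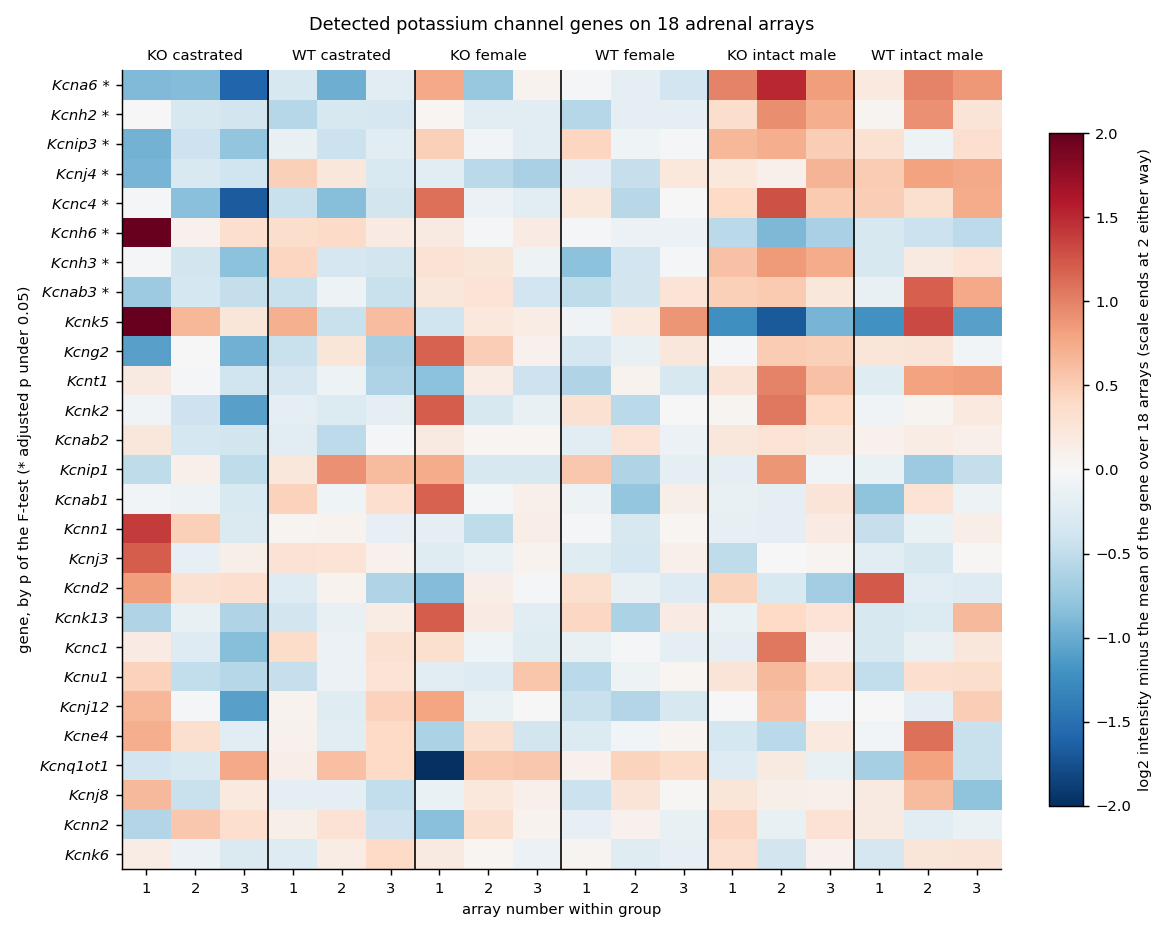
Each row is a detected potassium channel gene and each column an array, in the order castrated knockouts, castrated wild types, knockout and wild-type females, and knockout and wild-type intact males; colour gives the log2 intensity minus the gene's mean over the 18 arrays. The 8 genes with an asterisk passed the F-test; Kcna6 and Kcnh2 are red on nearly all 6 intact male arrays, and array 1 of the castrated knockouts and array 1 of the knockout females hold several single extreme values.

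Promoters of 4 genes are shown for orientation. Kcna6 and Kcnh2 were lower than in intact males in 3 and 4 of the 4 comparisons of castrated males and females, and Kcnk5 and Kcnh6 are the 2 members that rose in castrated knockouts. Each is the stretch of 250 bases before the transcription start of the RefSeq annotation of GRCm38.p6, 5′ to 3′ on the gene's own strand, with CG dinucleotides in capitals. The windows lie at chr6:126740675-126740924 on the minus strand, chr5:24329592-24329841 on the minus strand, chr14:20181783-20182032 on the minus strand and chr11:106007898-106008147 on the plus strand.
Kcna6: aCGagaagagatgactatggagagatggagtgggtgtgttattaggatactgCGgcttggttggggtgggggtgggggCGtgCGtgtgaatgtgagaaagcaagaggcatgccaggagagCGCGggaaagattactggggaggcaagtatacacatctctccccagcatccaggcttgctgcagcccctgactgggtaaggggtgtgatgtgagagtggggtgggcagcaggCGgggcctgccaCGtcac
Kcnh2: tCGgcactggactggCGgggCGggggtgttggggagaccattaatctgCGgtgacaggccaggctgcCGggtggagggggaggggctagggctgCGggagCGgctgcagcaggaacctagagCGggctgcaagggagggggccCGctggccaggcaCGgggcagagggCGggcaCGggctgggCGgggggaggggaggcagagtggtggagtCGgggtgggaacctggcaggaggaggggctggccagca
Kcnk5: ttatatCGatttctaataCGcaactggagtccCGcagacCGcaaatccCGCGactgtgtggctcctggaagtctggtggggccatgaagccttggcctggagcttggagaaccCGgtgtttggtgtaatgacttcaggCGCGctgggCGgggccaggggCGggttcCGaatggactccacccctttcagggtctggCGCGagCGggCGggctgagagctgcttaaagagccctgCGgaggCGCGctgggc
Kcnh6: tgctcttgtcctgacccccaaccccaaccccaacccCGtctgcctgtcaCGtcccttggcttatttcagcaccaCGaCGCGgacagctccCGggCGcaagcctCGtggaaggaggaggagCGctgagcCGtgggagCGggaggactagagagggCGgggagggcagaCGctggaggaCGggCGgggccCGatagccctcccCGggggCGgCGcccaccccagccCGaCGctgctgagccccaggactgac
The Kcna6 window had 8 CG dinucleotides and 58.8% G and C, the Kcnh2 window 14 and 73.6%, the Kcnk5 window 19 and 62.8%, and the Kcnh6 window 21 and 70.8%. The median of 32851 promoter windows of this length was 6 CG dinucleotides and 52.4%. The letters AGAACA on either strand, a binding core shared by the androgen and glucocorticoid receptors, were in none of the 4 windows. Across all windows 16.1% held these letters, and among the 32 windows of the 20 detected genes with an entry they were in those of Kcnk2 and Kcnab1. The palindrome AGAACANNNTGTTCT, which contains AGAACA on both strands, was in 0.00913% of all windows and in 0 of the 32. TATAAA, searched on both strands, was in 12.4% of all windows and in 0 of the 32.

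Kcna6 encodes a Shaker-type delayed rectifier subunit. Its log2 intensity was 5.93, 5.94 and 5.23 in castrated knockouts and 6.49, 5.84 and 6.59 in castrated wild types. Females read 7.56, 6.05 and 6.88 as knockouts and 6.77, 6.61 and 6.43 as wild types. Intact males read 7.81, 8.33 and 7.65 as knockouts and 7.00, 7.81 and 7.69 as wild types. The intact males were above the castrated males of their own genotype on every array, and the castrated knockouts were the lowest group, with Kcna6 detected on 1 of their 3 arrays. Castrated knockouts were 4.69-fold below knockout intact males, a log2 difference of -2.23 (SE 0.33, limma adjusted p = 0.000211). Castrated wild types differed from wild-type intact males by -1.19 (SE 0.33, limma adjusted p = 0.0277), and knockout females from knockout intact males by -1.10 (SE 0.33, limma adjusted p = 0.0422). In wild-type females the difference was -0.90 (SE 0.33, limma adjusted p = 0.105), which did not pass. The castrated knockout difference passed with each of the 18 arrays left out in turn (-2.37 to -2.00). Its size depended on the background correction: without it the difference was -1.09 in castrated knockouts, -0.60 in castrated wild types and -0.61 in knockout females, all still passing. In castrated wild types the call was lost without wild-type castrated array 1 (-1.29) or array 2 (-0.96), or without wild-type male array 2 (-1.04) or array 3 (-1.10). In knockout females the call was lost on leaving out any of 5 arrays of the groups compared or any of 6 arrays of other groups, and the difference was -0.71 without knockout female array 2.

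The ether-a-go-go family member Kcnh2 forms the rapid delayed rectifier that repolarizes heart muscle. It read 8.83, 8.52 and 8.47 in castrated knockouts and 8.26, 8.51 and 8.50 in castrated wild types. Readings were 8.87, 8.62 and 8.61 in knockout females and 8.27, 8.65 and 8.65 in wild-type females. Intact males read 9.19, 9.76 and 9.56 in knockouts and 8.89, 9.74 and 9.10 in wild types. In either genotype all intact male arrays were above all castrated and all female arrays. Kcnh2 was the only detected member that passed in all 4 comparisons with intact males. The log2 differences of castrated from intact males were -0.90 (SE 0.20, limma adjusted p = 0.00535) in knockouts and -0.82 (SE 0.20, limma adjusted p = 0.0137) in wild types. Females differed from intact males by -0.81 (SE 0.20, limma adjusted p = 0.0144) in knockouts and by -0.72 (SE 0.20, limma adjusted p = 0.0287) in wild types. The castrated knockout difference passed with each array left out, and was -1.38 under median scaling. Wild-type male array 2 carried much of both wild-type differences, which were -0.57 in castrated males and -0.47 in females without it, neither passing. Leaving out castrated wild-type array 1 ended the castrated wild-type call too (-0.74). In females the wild-type call was lost without any 1 of the 3 wild-type female arrays (-0.59 to -0.79), and the knockout call without knockout female array 2 or 3 or knockout male array 2 or 3 (-0.68 to -0.78).

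Kcnc4 forms fast-inactivating channels that shorten action potentials. Its values were 10.23, 9.42 and 8.60 in castrated knockouts and 9.82, 9.41 and 9.88 in castrated wild types. Knockout females read 11.36, 10.14 and 10.05 and wild-type females 10.47, 9.69 and 10.26. Intact males read 10.65, 11.53 and 10.78 as knockouts and 10.75, 10.57 and 10.99 as wild types. The castrated arrays lay below the intact male arrays in both genotypes, and knockout female array 1 was above every other array but knockout male array 2. Castrated knockouts were 2.97-fold below knockout intact males (-1.57 (SE 0.36, limma adjusted p = 0.00637)), a call that held with each array left out. The castrated wild-type difference was -1.07 (SE 0.36, limma adjusted p = 0.0691), and those of females were -0.47 in knockouts and -0.63 in wild types, none of which passed.

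The other detected ether-a-go-go members differed from Kcnh2 in their values. Kcnh3 read 5.47, 5.14 and 4.70 in castrated knockouts and 5.95, 5.18 and 5.15 in castrated wild types. Its readings were 5.81, 5.76 and 5.41 in knockout females and 4.70, 5.14 and 5.49 in wild-type females, and 6.10, 6.37 and 6.26 in knockout intact males and 5.19, 5.69 and 5.79 in wild-type intact males. Only knockout intact males detected it on all 3 arrays, and no array of the castrated knockouts or wild-type females did. The mean was 5.10 ± 0.39 in castrated knockouts and 6.24 ± 0.14 in knockout intact males (SD, n = 3 each). Castrated knockouts were thus at least 1.27-fold lower (limma adjusted p = 0.009), where the bound sets each castrated array at no less than the lowest signal among its detected probes.

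Kcnh6 went the other way. It read 8.25, 6.30 and 6.56 in castrated knockouts and 6.57, 6.61 and 6.38 in castrated wild types. The females read 6.40, 6.18 and 6.38 as knockouts and 6.20, 6.11 and 6.10 as wild types, and intact males 5.69, 5.32 and 5.57 as knockouts and 5.90, 5.79 and 5.70 as wild types. The intact males were the lowest arrays of the series, below all castrated and female arrays. Castrated knockouts were 2.85-fold above knockout intact males (1.51 (SE 0.33, limma adjusted p = 0.00466)). Of the 3 Kcnh6 probes only 1 was detected, so this rise rests on that probe alone. The annotation of that probe names a sequence that is not a RefSeq transcript, unlike those of the other genes that passed. Castrated knockout array 1, the dim array, stood far above the others of its group, and without it the difference was 0.91 (limma adjusted p = 0.00335). It was 0.67 without background correction, still passing, and the call was lost when only the 2 groups compared entered the fit. The other differences from intact males were 0.72 (SE 0.33, limma adjusted p = 0.192) for castrated wild types, 0.79 (SE 0.33, limma adjusted p = 0.154) for knockout females and 0.34 (SE 0.33, limma adjusted p = 0.617) for wild-type females.

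Both remaining voltage-gated pore subunits passed in no comparison. Kcnd2, which carries transient A-type current, read 7.02, 6.50 and 6.52 in castrated knockouts and 5.92, 6.25 and 5.58 in castrated wild types, 5.32, 6.32 and 6.17 in knockout females and 6.51, 6.04 and 5.92 in wild-type females. Intact males read 6.63, 5.88 and 5.49 in knockouts and 7.42, 5.96 and 5.92 in wild types. All castrated knockout arrays were above all castrated wild-type arrays, a difference of 0.76 (SE 0.38, unadjusted p = 0.0617, limma adjusted p = 0.751). Kcnc1, a fast delayed rectifier subunit of neurons that fire at high rates, had group means of 5.38 to 6.01 and was detected on none of the castrated knockout arrays.

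**Figure D2:**
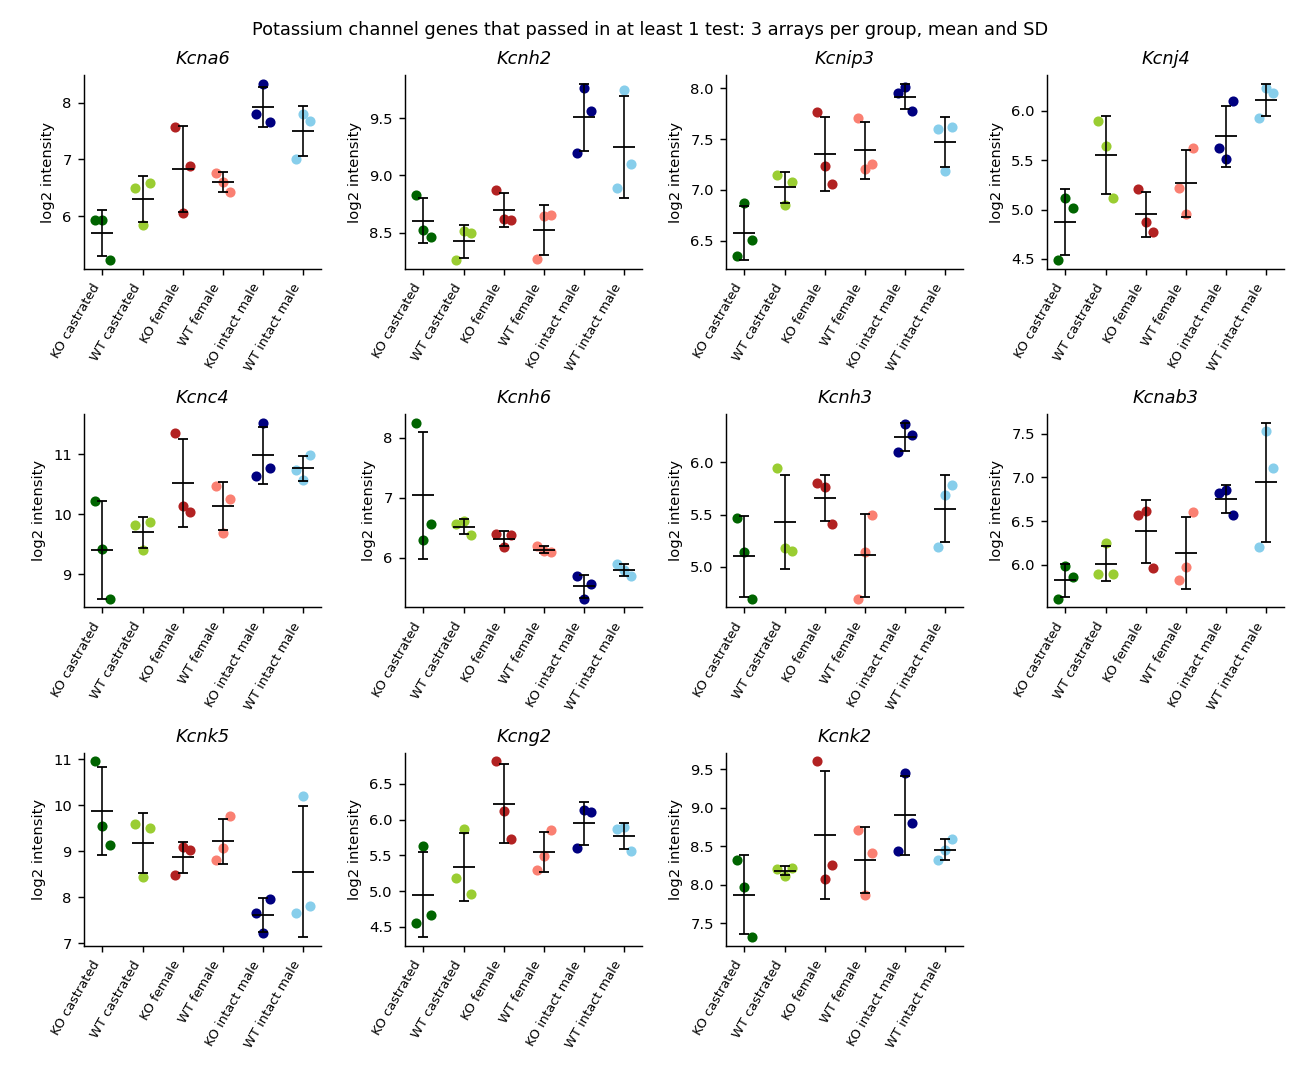
Log2 intensity (vertical axis, a separate scale for each gene) of the 11 genes that passed in at least 1 test, with 3 arrays per group as points and the mean and SD as bars. Intact males, at the right of each panel, are high for Kcna6 and Kcnh2 and low for Kcnh6, and single arrays stand apart for Kcnk5 (wild-type intact male array 2 at 10.20) and Kcnh6 (castrated knockout array 1 at 8.25).

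Kcng2, a modifier subunit that changes the gating of other voltage-gated channels, read 4.55, 5.63 and 4.66 in castrated knockouts and 5.18, 5.87 and 4.96 in castrated wild types. It read 6.82, 6.13 and 5.72 in knockout females and 5.29, 5.49 and 5.85 in wild-type females, and 5.60, 6.14 and 6.11 in knockout intact males and 5.87, 5.89 and 5.57 in wild-type intact males. It was detected on all arrays of knockout females and of both intact male groups, and on 1 array of each other group. Castrated knockouts were lower than knockout intact males, with a log2 difference of -1.00 (SE 0.33, limma adjusted p = 0.0415), although castrated knockout array 2 lay within the range of the intact males. The call was lost without castrated knockout array 1 (-0.80) or array 3 (-0.86), without knockout male array 2 (-0.91) or array 3 (-0.92), without either of 2 female arrays, and without background correction (-0.31). Against knockout females the castrated knockout difference was -1.27 (SE 0.33, limma adjusted p = 0.0589), with no overlap of arrays.

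Kcnip3 encodes a calcium-binding protein that assembles with A-type channels and is also known as a transcriptional repressor. Castrated knockouts read 6.35, 6.87 and 6.51 and castrated wild types 7.14, 6.85 and 7.08. In knockout females it read 7.77, 7.24 and 7.06 and in wild-type females 7.71, 7.21 and 7.25. The intact males read 7.96, 8.02 and 7.78 as knockouts and 7.60, 7.19 and 7.62 as wild types. Castrated knockouts were the lowest group and knockout intact males the highest, with no overlap of arrays between them. Castrated knockouts were 2.53-fold below knockout intact males (-1.34 (SE 0.21, limma adjusted p = 0.000377)), which passed with each array left out (-1.49 to -1.23). Without background correction the difference was -0.75 and with the authors' normalized values -0.73, both passing. Kcnip3 was detected on 2 of the 3 castrated knockout arrays. The castrated wild-type difference was -0.45 (SE 0.21, limma adjusted p = 0.212) and that of knockout females -0.56 (SE 0.21, limma adjusted p = 0.108).

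Among the cytoplasmic beta subunits, Kcnab3 was the only gene that passed. It read 5.61, 5.99 and 5.86 in castrated knockouts and 5.90, 6.25 and 5.90 in castrated wild types. Females read 6.57, 6.61 and 5.96 as knockouts and 5.83, 5.97 and 6.61 as wild types, and intact males 6.82, 6.86 and 6.56 as knockouts and 6.20, 7.53 and 7.10 as wild types. Castrated knockouts lay below knockout intact males on every array, whereas wild-type intact male array 1 lay within the range of the castrated wild types. The differences were -0.93 (SE 0.29, limma adjusted p = 0.0363) in castrated knockouts and -0.93 (SE 0.29, limma adjusted p = 0.0493) in castrated wild types. The knockout call was lost on leaving out any of 5 of the 6 arrays compared (-1.02 to -0.82), and without background correction (-0.37), where the wild-type difference was -0.43 and passed. The wild-type call was lost on leaving out any of 5 arrays compared or any of 8 others, and was -0.64 without wild-type male array 2. In females the differences were -0.37 in knockouts and -0.81 (SE 0.29, limma adjusted p = 0.0959) in wild types.

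Kcnab1, a beta subunit that speeds inactivation, read 6.76, 6.71 and 6.51 in castrated knockouts and 7.27, 6.72 and 7.16 in castrated wild types. Its values were 8.00, 6.78 and 6.92 in knockout females and 6.71, 6.04 and 6.92 in wild-type females, and 6.66, 6.62 and 7.07 in knockout intact males and 6.01, 7.08 and 6.72 in wild-type intact males. Knockout female array 1 was the highest of the 18. Kcnab2, the related beta subunit, varied least of this family, with group means of 7.85 to 8.34.

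Kcnip1, which also binds A-type channels, read 4.72, 5.33 and 4.72 in castrated knockouts and 5.46, 6.14 and 5.86 in castrated wild types. It read 5.97, 4.90 and 4.90 in knockout females and 5.76, 4.63 and 5.03 in wild-type females, and 5.02, 6.10 and 5.15 in knockout intact males and 5.10, 4.50 and 4.74 in wild-type intact males. No array of the castrated knockouts or of the wild-type intact males detected it. Castrated wild types were at least 1.24-fold above wild-type intact males with no overlap of arrays, which did not pass (limma adjusted p = 0.0777). Kcne4, a single-span subunit that inhibits several voltage-gated channels, had group means of 5.74 to 6.25 and passed in no comparison.

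Kcnj4, a strong inward rectifier, read 4.49, 5.11 and 5.01 in castrated knockouts and 5.90, 5.65 and 5.12 in castrated wild types. Readings in knockout females were 5.21, 4.87 and 4.77 and in wild-type females 5.22, 4.95 and 5.63. Intact males read 5.62, 5.51 and 6.10 in knockouts and 5.93, 6.23 and 6.18 in wild types. Both intact male groups detected it on all arrays, while none of the castrated knockout or knockout female arrays did. Castrated knockouts averaged 4.87 ± 0.34 and knockout intact males 5.74 ± 0.31 (SD, n = 3 each; limma adjusted p = 0.0291), and no fold is given because the castrated level was not well above background. The call was lost without castrated knockout array 1 (adjusted p = 0.103), knockout male array 1 (0.0503) or knockout male array 3 (0.13). Wild-type females were below wild-type intact males, with a log2 difference of -0.84 (SE 0.26, limma adjusted p = 0.0493), and this call was lost without any of 5 arrays compared or any of 9 others. Only 1 of 3 wild-type female arrays detected Kcnj4. Without background correction this difference was -0.26, not passing, so its size depended on signal near background. Knockout females were at least 1.14-fold below knockout intact males (limma adjusted p = 0.0657), which did not pass.

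Kcnj3, a subunit of the G protein-gated channels that slow the heart, read 6.76, 5.39 and 5.68 in castrated knockouts and 5.85, 5.84 and 5.64 in castrated wild types. It read 5.32, 5.42 and 5.62 in knockout females and 5.32, 5.20 and 5.66 in wild-type females, and 5.05, 5.55 and 5.62 in knockout intact males and 5.32, 5.23 and 5.58 in wild-type intact males. Castrated knockout array 1 was the highest of all. Kcnj12, another strong inward rectifier, read 7.04, 6.34 and 5.29 in castrated knockouts and 6.45, 6.13 and 6.84 in castrated wild types. Its readings were 7.16, 6.25 and 6.37 in knockout females and 5.92, 5.78 and 6.05 in wild-type females, and 6.38, 6.96 and 6.35 in knockout intact males and 6.38, 6.18 and 6.87 in wild-type intact males. The wild-type females were low, below every castrated wild-type array. Kcnj8, the pore subunit of ATP-sensitive channels in vascular muscle, read 7.50, 6.40 and 7.04 in castrated knockouts and 6.65, 6.66 and 6.36 in castrated wild types. Females read 6.72, 7.06 and 6.95 as knockouts and 6.43, 7.11 and 6.87 as wild types, and intact males 7.09, 6.96 and 6.95 as knockouts and 7.03, 7.49 and 6.04 as wild types. None of these 3 genes passed in any comparison.

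Kcnk5, a two-pore channel activated by alkaline conditions outside the cell, showed the largest rise among the members. It read 10.96, 9.54 and 9.13 in castrated knockouts and 9.60, 8.43 and 9.51 in castrated wild types. Knockout females read 8.48, 9.09 and 9.03 and wild-type females 8.81, 9.07 and 9.76. Intact males read 7.65, 7.21 and 7.96 in knockouts and 7.67, 10.20 and 7.80 in wild types. All castrated knockout arrays were above all knockout intact male arrays, while wild-type male array 2 stood above every castrated wild-type array and the other wild-type male arrays. Castrated knockouts were 4.81-fold higher (2.27 (SE 0.54, limma adjusted p = 0.00786)), which held with each array left out (1.73 to 2.64). Castrated knockout array 1, the dim array, held the highest value of the series, and the smallest difference, 1.73, was without it. In castrated wild types the difference was 0.63 (SE 0.54, limma adjusted p = 0.541), in knockout females 1.26 (SE 0.54, limma adjusted p = 0.166) and in wild-type females 0.66 (SE 0.54, limma adjusted p = 0.527).

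Kcnk2, a two-pore channel opened by membrane stretch and lipids, read 8.32, 7.97 and 7.32 in castrated knockouts and 8.21, 8.12 and 8.22 in castrated wild types. Its values were 9.60, 8.07 and 8.25 in knockout females and 8.71, 7.86 and 8.41 in wild-type females, and 8.44, 9.46 and 8.80 in knockout intact males and 8.32, 8.45 and 8.59 in wild-type intact males. Castrated knockouts lay below knockout intact males on every array, with a log2 difference of -1.03 (SE 0.34, limma adjusted p = 0.0455), close to the threshold. The call was lost without any of 4 of the arrays compared or any of 7 others, and the difference was -0.75 without castrated knockout array 3 or without knockout male array 2. Under median scaling it was -1.55, passing, and without background correction -0.75, not passing. Kcnk13, a background channel, read 5.41, 5.88 and 5.42 in castrated knockouts and 5.66, 5.86 and 6.17 in castrated wild types. It read 7.23, 6.19 and 5.81 in knockout females and 6.43, 5.38 and 6.18 in wild-type females, and 5.88, 6.42 and 6.29 in knockout intact males and 5.70, 5.75 and 6.68 in wild-type intact males. Knockout female array 1 was its highest. Kcnk6 had the narrowest spread of group means of the 27 genes, 7.29 to 7.50, and neither Kcnk13 nor Kcnk6 passed in any comparison.

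No gene of the calcium-activated and sodium-activated group, as formed by symbol, passed. Kcnt1, a sodium-activated channel, read 5.61, 5.39 and 5.04 in castrated knockouts and 5.10, 5.33 and 4.82 in castrated wild types. Females read 4.61, 5.59 and 5.01 as knockouts and 4.83, 5.51 and 5.12 as wild types, and intact males 5.69, 6.42 and 6.02 as knockouts and 5.20, 6.24 and 6.26 as wild types. Detection was confined to 5 intact male arrays and 1 knockout female array. Knockout females were below knockout intact males on every array, with a log2 difference of -0.97 (SE 0.32, limma adjusted p = 0.0617). Castrated knockouts averaged 5.35 ± 0.29 and knockout intact males 6.04 ± 0.37 (SD, n = 3 each; limma adjusted p = 0.146). The small-conductance channels Kcnn1 and Kcnn2, which open on calcium entry and follow action potentials with a hyperpolarization, had group means of 5.79 to 6.50 and 5.96 to 6.30. Kcnu1, a channel best known from sperm, had group means of 5.74 to 6.36.

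Kcnq1ot1 read 7.18, 7.26 and 8.33 in castrated knockouts and 7.70, 8.17 and 7.96 in castrated wild types. It read 4.93, 8.08 and 8.10 in knockout females and 7.65, 8.01 and 7.93 in wild-type females, and 7.30, 7.74 and 7.41 in knockout intact males and 6.90, 8.36 and 7.12 in wild-type intact males. Knockout female array 1 was far below the other 17 arrays and did not detect it. Xist, another long noncoding RNA, was also lowest among the females on that array, at 8.14, against 10.23 and 9.88 on the other knockout female arrays and 9.70, 10.11 and 10.11 in wild-type females.

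Castration was followed by lower values of more members in knockouts than in wild types, by count. Among knockouts 11 of 27 members passed between castrated and intact males (40.7%), against 17.5% of all genes. Of these, 9 were lower in castrated males, against 10.1% of all genes that were lower, and 2 were higher, against 7.45%. The arrays of the groups did not overlap for 13 of 27 members, against 32.9% of all genes. The median log2 difference of the 27 members was -0.50, and -0.03 over all genes. For 6 members the lower group was detected on no array, and with these at their bounds the member median was -0.12.

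In wild types 3 of 27 members passed between castrated and intact males, Kcnh2, Kcna6 and Kcnab3, all lower, against 10.7% of all genes called and 6.1% called lower. The member median was -0.14, and -0.03 over all genes. The 2 castration differences were compared directly: the difference between them passed for 0 of 27 members and for 0 of all 10375 genes by limma, with 6 members and 417 genes at an unadjusted p under 0.05. The members with the smallest p included Kcnip1 and Kcnh3, for which no size is given: castrated knockouts detected neither on any array, and wild-type intact males did not detect Kcnip1. The others of the 5 smallest were Kcnip3 at -0.90 (SE 0.30, unadjusted p = 0.00821, limma adjusted p = 0.966), Kcnd2 at 1.19 and Kcna6 at -1.04 (SE 0.47, unadjusted p = 0.0409, limma adjusted p = 0.966). Kcnk5 had the highest value of the 27 members, 1.64 (SE 0.77, limma adjusted p over all probes = 0.975). Its wild-type side includes wild-type male array 2, which stood apart at 10.20. The count of 11 against 3 is therefore not shown to be a genotype difference.

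Several chromaffin cell markers were also lower after castration. Of 15 markers 12 were detected. Their summed intensity was 50405 to 62896 in castrated knockouts and 102771 to 116777 in knockout intact males, and 70434 to 76547 in castrated wild types and 85235 to 105871 in wild-type intact males. In knockouts 10 of the 12 were lower in castrated males (median log2 difference -1.13), including Dbh at -1.45 and Th at -1.21, and Pnmt did not pass at -0.34. In wild types 3 of 12 were lower and 0 higher (median -0.57). Pnmt went the other way there, at 0.75 (SE 0.45, limma adjusted p = 0.327), without passing. The zona fasciculata markers moved the other way, with 5 of 7 higher in castrated knockouts and 2 of 7 in castrated wild types, and all 3 X-zone markers were higher in castrated males of both genotypes. Of 7 zona glomerulosa markers 2 were lower and of 6 endothelial markers 3 were lower after castration in either genotype. In castrated knockouts 2 of 3 Schwann and sustentacular markers (median -0.93), 2 of 5 macrophage markers, 1 of 5 smooth muscle markers and 1 of 6 capsule and fibroblast markers were lower too, against 0 of each list in castrated wild types. For 0 markers of these lists did the castration difference itself pass between genotypes. The part of these marker changes in the channel gene differences was not tested. No kidney or skeletal muscle marker was detected.

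**Figure D3:**
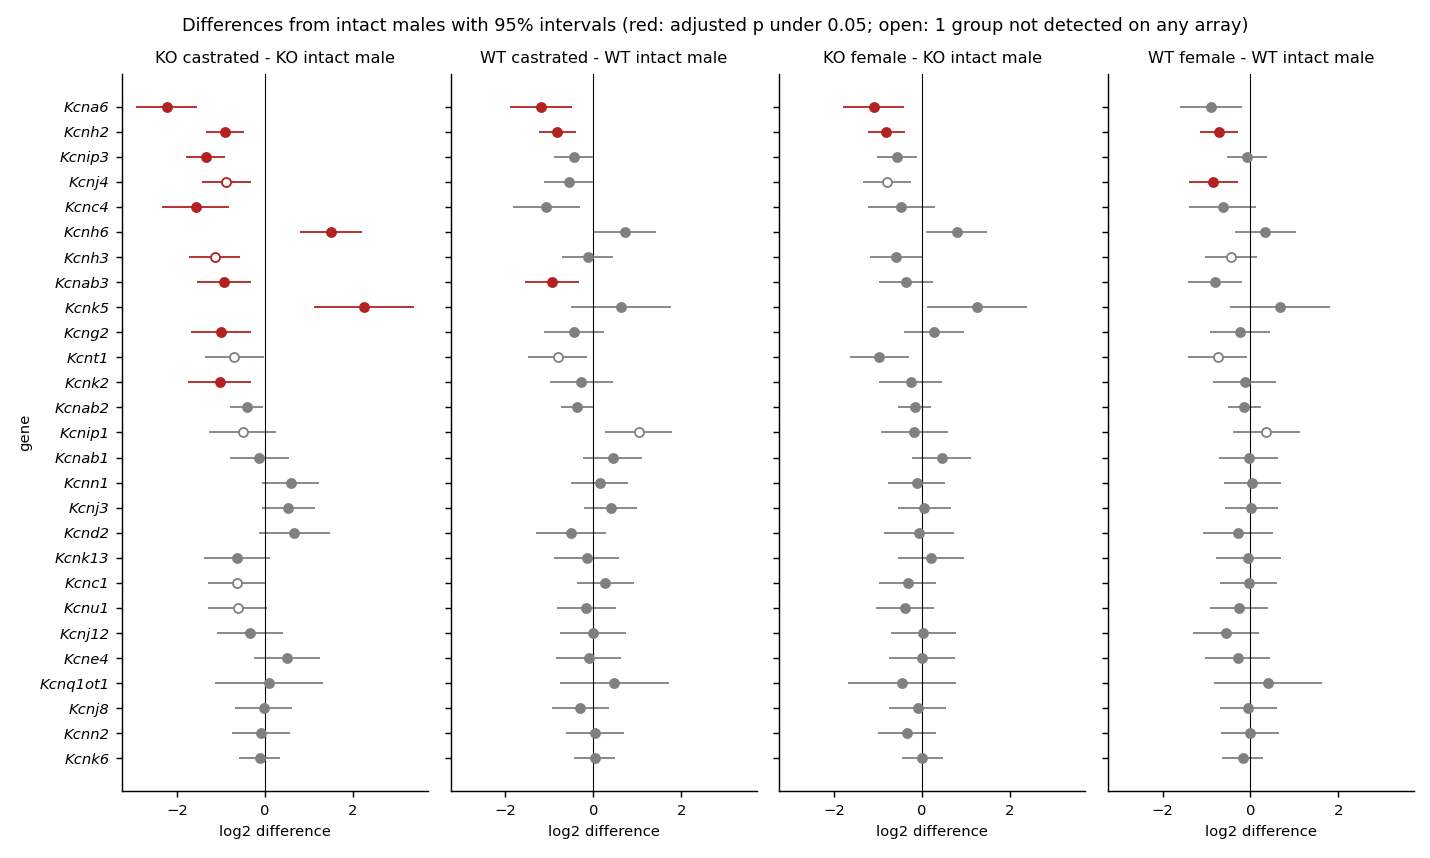
Log2 difference from intact males (horizontal axis) of each detected member with its 95% interval, for castrated knockouts, castrated wild types, knockout females and wild-type females; red marks an adjusted p under 0.05 and open symbols a group in which no array detected the gene. Castrated knockouts have 11 red symbols, 9 to the left of 0, and Kcnh2 is red in all 4 panels.

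Few members passed between females and intact males. Among knockouts 2 of 27 members passed between females and intact males, Kcnh2 and Kcna6, both lower in females, against 10.3% of all genes (4.77% lower). In wild types 2 of 27 also passed, Kcnh2 and Kcnj4, both lower in females, against 10.1% of all genes (4.82% lower). The share of members that passed was 7.41% in each genotype. That is near the share of all genes called in either direction, and above the share called lower, and it rests on 2 genes. With array weights 8 members passed in knockouts and 7 in wild types, and 9 passed between castrated and intact wild types. The share of all genes with array weights is not given here, so these counts show only that the number passing depended on the setting. Castrated males tested directly against females differed in 0 members of either genotype. A smaller effect of sex than of castration is therefore not shown. Member medians were -0.17 in knockouts and -0.14 in wild types, against -0.03 and -0.02 over all genes. Of the chromaffin markers 0 of 12 passed in either genotype, at summed intensities of 84712 to 136702 in knockout females and 80903 to 98093 in wild-type females. Of zona glomerulosa markers 2 of 7 were lower in females of either genotype. The castration and sex comparisons of a genotype share the 3 intact male arrays, so their results are not independent.

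No member passed between castrated males and females. Among knockouts 0 of 27 passed, against 1.53% of all genes, with 8 members at an unadjusted p under 0.05. The smallest p-values were those of Kcng2, Kcnip3 (-0.78 (SE 0.21, limma adjusted p = 0.0774)), Kcna6 (-1.14 (SE 0.33, limma adjusted p = 0.0934)), Kcnc4 (-1.10 (SE 0.36, limma adjusted p = 0.137)) and Kcnk13 (-0.84 (SE 0.35, limma adjusted p = 0.232)), all lower in castrated males. In this comparison 4 of 12 chromaffin markers were lower. In wild types 0 of 27 passed, against 0.328% of all genes, and 0 members had an unadjusted p under 0.05. The smallest p-values there were for Kcnip1 (0.68 (95% interval -0.08 to 1.44, limma adjusted p = 0.63)), Kcnip3 (-0.37 (95% interval -0.81 to 0.08, limma adjusted p = 0.689)), Kcnj12 (0.55 (95% interval -0.19 to 1.30, limma adjusted p = 0.743)), Kcnab1 (0.49 (95% interval -0.18 to 1.16, limma adjusted p = 0.748)) and Kcnj3 (0.38 (95% interval -0.22 to 0.99, limma adjusted p = 0.797)).

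No potassium channel gene passed the test between Ephb6 knockouts and wild types. Between knockouts and wild types 0 of 27 members passed in castrated males, in females or in intact males, as did 0 of 10375 genes (0%) in each condition. Averaged over the 3 conditions 0 members and 1 gene passed (0.00964%). At an unadjusted p under 0.05 the members were 3 in castrated males, 1 in females, 1 in intact males and 1 in the mean, against 651, 291, 275 and 397 of all genes. The smallest p in the mean was that of Kcnj4, lower in knockouts (limma unadjusted p = 0.00805, adjusted p = 0.979), followed by Kcnh3 (limma adjusted p = 0.979). No size is given for these 2 genes. No castrated knockout array detected either, no knockout female array detected Kcnj4, and no wild-type female array detected Kcnh3. Next came Kcnh2 (0.21 (95% interval -0.04 to 0.45, limma adjusted p = 0.979)), Kcnj8 (0.23 (95% interval -0.15 to 0.60, limma adjusted p = 0.979)) and Kcnq1ot1 (-0.39 (95% interval -1.10 to 0.33, limma adjusted p = 0.979)).

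By condition, the smallest p-values in castrated males were those of Kcnj4 (unadjusted p = 0.0189) and Kcnip1 (unadjusted p = 0.0242), neither detected in castrated knockouts, Kcnip3 at -0.45 (SE 0.21, unadjusted p = 0.0498, limma adjusted p = 0.751), Kcnd2 (above) and Kcna6 at -0.61 (SE 0.33, unadjusted p = 0.0844, limma adjusted p = 0.751). In females they were Kcnab1 at 0.68 (SE 0.32, unadjusted p = 0.0486, limma adjusted p = 1), Kcng2 at 0.68 (95% interval -0.01 to 1.36, limma adjusted p = 1), Kcnh3, Kcnj12 at 0.67 (95% interval -0.07 to 1.42, limma adjusted p = 1) and Kcnq1ot1 at -0.83 (95% interval -2.06 to 0.41, limma adjusted p = 1). In intact males they were Kcnh3 at 0.69 (SE 0.28, unadjusted p = 0.0243, limma adjusted p = 1), Kcnip3 at 0.45 (95% interval -0.00 to 0.90, limma adjusted p = 1), Kcnip1, Kcnk5 at -0.94 (95% interval -2.08 to 0.19, limma adjusted p = 1) and Kcnj4 at -0.37 (95% interval -0.92 to 0.19, limma adjusted p = 1). The knockout difference was also set between conditions. It differed for 0 members between females and intact males (0 at an unadjusted p under 0.05) and for 0 between castrated males and females (3 at that p: Kcnab1, Kcng2 and Kcnh3), with 0 of all genes passing in either (0%). A p above the threshold does not show equal levels, and the intervals were wide, as the Kcnk5 interval in intact males shows.

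For 7 members a second probe was detected, which gives a further reading of the same RNA. The second Kcna6 probe read 4.57, 5.35 and 5.03 in castrated knockouts and 6.79, 7.17 and 6.65 in knockout intact males. No castrated knockout array detected it, so the castrated level is only bounded, at least 1.96-fold lower (limma adjusted p over all probes = 0.000396). In castrated wild types this probe differed by -0.80 (SE 0.29, limma adjusted p over all probes = 0.107), which did not pass. For Kcnk5 the second probe read 8.32, 6.76 and 6.36 in castrated knockouts and 5.70, 4.89 and 5.19 in knockout intact males, a difference of 1.89 (SE 0.51, limma adjusted p over all probes = 0.02), with 3 castrated arrays and 1 intact male array detecting it. In castrated knockouts the second probes of Kcna6 and Kcnk5 passed in the same direction as the first probe. Castrated knockout array 1, the dim array, held the highest value of both Kcnk5 probes. The second Kcnc4 probe differed by -1.22 (SE 0.40, limma adjusted p over all probes = 0.0519) and did not pass. The second Kcnh2 probe differed by -0.55 (SE 0.22, limma adjusted p over all probes = 0.107) in castrated knockouts, which did not pass, and by -1.01 (SE 0.22, limma adjusted p over all probes = 0.00664) in castrated wild types, which did. In females the second Kcnh2 probe differed by -0.50 (SE 0.22, limma adjusted p over all probes = 0.191) in knockouts and -0.85 (SE 0.22, limma adjusted p over all probes = 0.0192) in wild types, so it passed in wild types only, whereas the first probe passed in both genotypes. The second probes of Kcnab1, Kcnd2 and Kcnt1 did not pass, like the first.

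**Figure D4:**
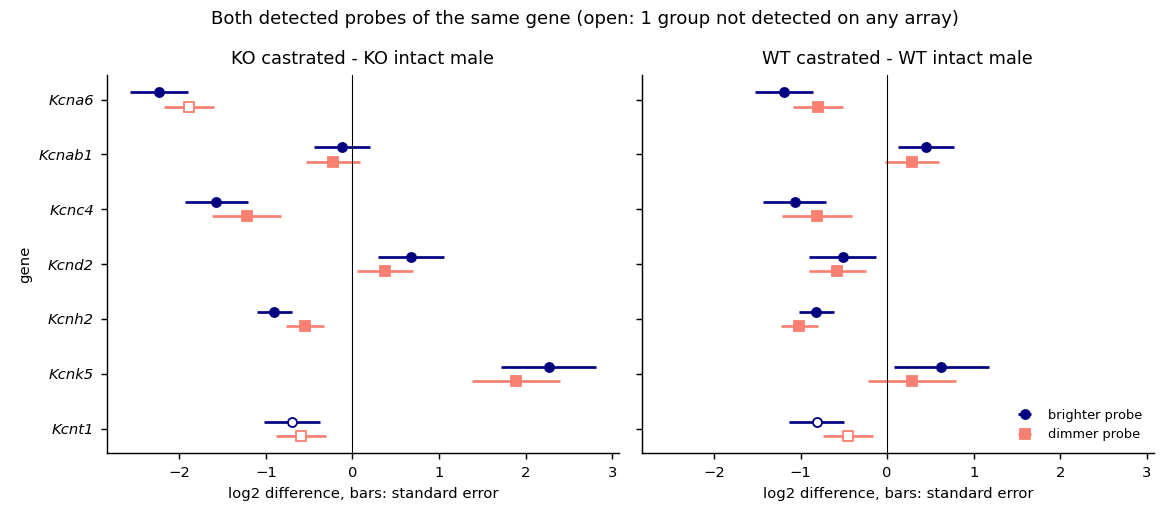
Log2 difference between castrated and intact males (horizontal axis, bars are the standard error) read by the brighter and the dimmer detected probe of 7 genes, for knockouts and for wild types. Open symbols mark a group in which no array detected the probe. The signs of both probes were the same for each gene in both panels; for Kcnk5 in knockouts they read 2.27 and 1.89.

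Genes that work beside the channels were taken as a separate list: the sodium pump and its regulators, potassium-coupled chloride cotransporters, hyperpolarization-activated channels, and partners of ATP-sensitive and A-type channels. Of 27 on the array, 15 were detected. Of all genes 10.1% were lower and 7.45% higher in castrated knockouts than in knockout intact males. Among the 15 partner genes 4 were lower in this comparison and 0 higher. They were Atp1b1, a sodium pump beta subunit, at -1.38 (SE 0.19, limma adjusted p = 0.0001), Atp1b2 at -1.03 (SE 0.23, limma adjusted p = 0.00563), Slc12a2, which imports sodium, potassium and chloride, at -0.72 (SE 0.25, limma adjusted p = 0.0492), and Slc12a4, which exports potassium with chloride, at -0.76 (SE 0.25, limma adjusted p = 0.0387). Atp1b1 averaged 10.11 ± 0.30 in castrated knockouts and 11.48 ± 0.18 in knockout intact males (SD, n = 3 each). In castrated wild types 4 of 15 were lower and 0 higher, where 6.1% of all genes were lower. The 4 were Atp1b2 (-1.18 (SE 0.23, limma adjusted p = 0.00283)), Slc12a2 (-1.05 (SE 0.25, limma adjusted p = 0.00971)), Slc12a4 (-0.81 (SE 0.25, limma adjusted p = 0.0408)) and Atp1b3 (-0.34 (SE 0.10, limma adjusted p = 0.0306)). Slc12a4 was dim: 2 of 3 castrated knockout and 1 of 3 castrated wild-type arrays detected it, against all intact male arrays.

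In knockout females 1 of these 15 genes passed against intact males, Atp1b2 (-0.85 (SE 0.23, limma adjusted p = 0.0242)), and in wild-type females 2 did, Atp1b2 (-1.01 (SE 0.23, limma adjusted p = 0.00814)) and Slc12a2 (-1.02 (SE 0.25, limma adjusted p = 0.0107)), all lower. Of all genes 4.77% were lower in knockout females and 4.82% in wild-type females. Castrated knockouts differed from knockout females in Atp1b1 (-1.05 (SE 0.19, limma adjusted p = 0.00903)) and in Fxyd6, a pump regulator, which was higher (0.47 (SE 0.10, limma adjusted p = 0.0234)). Among the others, Hcn3, a hyperpolarization-activated channel, differed by 0.56 (SE 0.24, limma adjusted p = 0.116) in castrated knockouts and 0.59 (SE 0.24, limma adjusted p = 0.129) in castrated wild types, without passing. Hcn2 differed by -0.09 (SE 0.22, limma adjusted p = 0.822), Slc12a7 by -0.44 (SE 0.27, limma adjusted p = 0.281) and Abcc9, the sulfonylurea receptor of vascular ATP-sensitive channels, by 0.11 (SE 0.22, limma adjusted p = 0.778) in castrated knockouts.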

How the data were processed

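Per the file headers, the deposited bead table gives, for 45281 probes on 18 arrays, the average intensity and the detection p-value. The submitters' processing notes name GenomeStudio, and neither its version nor the method of a further deposited table is given in the sources used here. That table, of intensity values normalized by the authors (column medians 142.357 to 142.403), served as an alternative. RNA was amplified to biotinylated cRNA, per the labels' protocols. No array pair was identical, and no slide or scan was named, so none was fitted. Columns of other samples numbered 0.

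Signals were background-corrected and quantile-normalized with neqc (limma 3.58.1, R 4.3.3, offset 16; the level of negative controls was taken from the detection p-values) and given as log2. The filter kept probes detected (p under 0.01) on 3 or more arrays. In the platform annotation 34885 probes carry 1 gene symbol, 18 carry several and 10378 carry none. A gene was tested through its brightest probe on average, which gave 10375 genes. A single limma fit of 18 arrays in 6 groups (12 residual degrees of freedom, prior 6.20, intensity trend) gave the moderated F-test and 13 contrasts, with Benjamini-Hochberg adjustment over all genes and calls at an adjusted p under 0.05. Precision is limited by the number of arrays, and a difference of 2 groups had a median standard error of 0.21 over all genes. An "at least" fold sets each array of the dimmer group at the higher of its own value and its lowest detected value. The script was tested on simulated data.

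Named are all detected members with their levels or ranges, array by array where they passed or were among the 5 smallest p-values of a contrast where fewer than 5 passed, undetected members by subfamily, partner genes that passed and up to 4 others, and check genes. The members, the lists and this rule were chosen with earlier results of these data known. Alternatives were the background correction, the authors' values, median scaling, array weights, filters, probe choice, trend, arrays compared, replicate block and each array left out.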

Additional observations from a re-analysis of the deposited data

How the results depend on the processing

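Counts are of the 27 detected members that passed. In castrated against intact knockouts (11) the count ran from 7, with only the groups compared in the fit, to 15 over the processing alternatives. It was 7 to 11 with an array left out, 7 being without knockout male array 3. Kcna6, Kcnip3, Kcnh2, Kcnc4, Kcnk5, Kcnh3 and Kcnh6 passed in all 18 of those fits, and Kcnab3, Kcng2, Kcnj4 and Kcnk2 did not. With no background correction, and with the authors' normalized values, 8 passed, without Kcnab3, Kcng2 and Kcnk2. In castrated against intact wild types (3) it was 9 with array weights, 1 with no filter on dim probes, 5 with only the groups compared, 6 with both low-weight arrays left out (chosen after seeing the data) and 0 to 5 with an array left out. In females against intact males the knockout count (2) was 0 under median scaling, 8 with array weights, 1 with every detected probe tested, 6 with both low-weight arrays left out and 0 to 5 with an array left out. The wild-type count (2) was 1 with no background correction, median scaling, no filter, every probe, only the groups compared or the replicate block, 7 with array weights and 0 to 3 with an array left out. The F-test count (8) ran from 5, with no filter, to 12 over the processing alternatives, and was 5 to 9 with an array left out. In castrated males against females among knockouts (0) it was 3 under median scaling, 2 with array weights and 0 to 1 with an array left out. All other counts stayed at 0, and no named difference changed its sign. Under median scaling Kcnh2 passed in castrated knockouts but not in castrated wild types or in females of either genotype.

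Under median scaling the median over all genes was -0.41 in castrated against intact knockouts, -0.16 in wild types and -0.37 in castrated knockouts against females, where quantile normalization gave -0.03, -0.03 and 0.00. The split of all calls was then 123 higher and 1233 lower in castrated knockouts, against 773 and 1045, 126 and 281 in castrated wild types, against 478 and 633, and 9 and 226 in castrated knockouts against females, against 53 and 106. Without background correction differences of dim genes were smaller, as for Kcna6 in castrated knockouts (-1.09) and Kcnh3 (-0.36), both still passing. Same-numbered arrays correlated at -0.23 to 0.23 over 45 pairs, with 6 pairs above 0.1, and 4 of 18 arrays correlated best with their own number. No pairing by number was seen in these correlations, which could miss a small shared effect. The replicate block gave 11 of 27 in castrated knockouts and 1 of 27 in wild-type females. With it the calls of Kcna6 in knockout females and of Kcnj4 in wild-type females were lost. Array 1 of the castrated knockouts detected only signals above 6.50 in log2, so non-detection there bounds dim members less tightly than elsewhere. The causes of these changes were not tested.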

Other observations

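A further 7 members were detected on 1 or 2 arrays only and passed no filter. Kcna10 was detected on 1 wild-type intact male array; its highest value, 6.36, was on castrated knockout array 1, which did not detect it. Kcnj6 was detected on 1 wild-type intact male array, and Kcnf1 on 1 knockout intact male array. Kcng4 was detected on intact male arrays alone, by 2 probes. Kcnj2 was detected on 1 castrated knockout and 1 wild-type intact male array, Kcnn3 on 1 knockout female and 1 knockout intact male array, and Kcns2 on 1 castrated wild-type array. A second Kcnk6 probe was detected on 2 wild-type female arrays.

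Knockout female array 1 held the highest value of the 18 arrays for Kcnk2 (9.60), Kcnab1 (8.00), Kcnk13 (7.23), Kcng2 (6.82) and Kcnj12 (7.16), and the lowest for Kcnq1ot1 (4.93), Kcnd2 (5.32), Kcne4 (5.34), Kcnn2 (5.27) and Kcnt1 (4.61). Its summed chromaffin marker intensity was 136702, the highest of the 18, against 84712 and 89679 on the other knockout female arrays.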
